A study of Mus musculus with 8 samples.

Results

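A set of 10 genes of metal handling was followed in the liver, picked by symbol from what they are known to do: the metallothioneins Mt1 and Mt2, the zinc importers Slc39a4, Slc39a5, Slc39a8 and Slc39a14, the exporters Slc30a1 and Slc30a10, the copper pump Atp7b and the copper protein ceruloplasmin (Cp). They are 10 of the 24940 genes in the count table, and all 10 were among the 12340 genes that passed the expression filter. RNA was sequenced from livers of C57BL/6 males, 4 FxrKO (livers 1 to 4) and 4 Bcl6LKOFxrKO (livers 5 to 8), each liver under its own number in the labels. Both genotypes lack FXR, the bile acid receptor encoded by Nr1h4, in the whole body, and both carry floxed Bcl6 alleles. Bcl6LKOFxrKO mice also carry Albumin-Cre, which deletes Bcl6, a transcriptional repressor, in hepatocytes. Hence the comparison shows what differed with hepatocyte Bcl6 deletion in mice that have no FXR, and livers with FXR were not analysed here. The paper reports higher serum and liver bile acids and signs of cholestatic liver damage in Bcl6LKOFxrKO than in FxrKO males. Loss of Bcl6, the presence of Cre and such liver disease cannot be told apart in this design. The study's methods state that mice were fed ad libitum or fasted for 4 hours, without saying which held for these livers, and age and hour of collection are not given in the sources used here.

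Zinc and copper are held at low free levels inside cells by proteins that carry, store or pump them. Metallothioneins are small cysteine-rich proteins that bind zinc and copper, and their genes are switched on by the zinc-sensing factor MTF-1 at metal response elements, and also by glucocorticoids and by interleukin 6. Zinc importers of the SLC39 (ZIP) family move zinc into the cytosol, and transporters of the SLC30 (ZnT) family move it out. In hepatocytes ATP7B loads copper onto ceruloplasmin for the blood and sends surplus copper to bile.

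The metallothionein promoters are shown because metal response elements are known from this family. Mt1 and Mt2 lie side by side on the + strand of mm10 chromosome 8, with 5521 bases between the end of Mt2 and the start of Mt1. The lines below run 5' to 3' from 250 bases before each RefSeq transcript start, over chr8:94178839-94179118 for Mt1 and chr8:94172368-94172647 for Mt2 (RefSeq, build GRCm38.p6, + strand), with every match to the metal response element core, TGCACNC or TGCGCNC on either strand, in capitals.
Mt1: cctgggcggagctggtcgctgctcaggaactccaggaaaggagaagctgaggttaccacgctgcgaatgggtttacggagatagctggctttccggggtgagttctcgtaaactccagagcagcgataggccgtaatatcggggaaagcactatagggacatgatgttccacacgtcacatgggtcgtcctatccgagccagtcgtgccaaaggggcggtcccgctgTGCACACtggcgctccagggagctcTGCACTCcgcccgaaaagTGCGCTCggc
Mt2: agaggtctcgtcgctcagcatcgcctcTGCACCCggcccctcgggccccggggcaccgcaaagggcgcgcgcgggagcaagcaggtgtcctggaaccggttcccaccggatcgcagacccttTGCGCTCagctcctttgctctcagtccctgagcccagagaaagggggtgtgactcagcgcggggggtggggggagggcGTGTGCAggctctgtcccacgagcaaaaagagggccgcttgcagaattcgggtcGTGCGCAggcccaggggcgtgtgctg
In the full window of 300 bases, from 250 before the start to 50 after it, Mt1 held 3 cores and Mt2 held 4. Of 32851 promoter windows of the same length, 25.7% held at least 1 core, 1.97% at least 3 and 0.517% at least 4. In Mt1, 1 core lay before the annotated start and 2 after it, and in Mt2, 3 lay before it and 1 after. Where transcription begins in these livers was not measured here, and cores outside the window were not counted.

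Windows were given for 8 of the 10 genes, and 7 of them had a core within 300 bases. Slc30a10 held 3 matches, of which 2 overlap on opposite strands, and Slc30a1 held 2. Slc39a5, Slc39a8 and Atp7b held 1 each, those of Slc39a5 and Slc39a8 in 1 of their 2 windows, and Cp held none in either of its 2 windows. The core of the antioxidant response element, TGACNNNGC on either strand, which 12.4% of all windows hold, was matched in Mt2, Slc30a1, Slc39a5 and Slc39a8. In Slc39a5 the matches lay only in the window not placed at the start of the counted transcript. Neither window of Slc39a8 is placed at the start of its counted transcript. The core that STAT and BCL6 sites share, TTCNNNGAA, which 8.3% of all windows hold, was matched in none of the 11 windows of these genes. These matches describe the letters only, and binding was not measured here.

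The libraries held 7586241 to 11839503 counts on genes, so that 3 counts, the limit a count of 0 allows, corresponded to between 0.272 and 0.375 CPM (counts scaled to 1 library size with edgeR's TMM factors), which covers counting error only. Bcl6 was at 56.3, 65.2, 21.2 and 55.6 CPM in FxrKO livers 1 to 4 and at 11.9, 4.61, 5.55 and 7.72 CPM in Bcl6LKOFxrKO livers 5 to 8. The targeted gene thus went with the labels, though liver 3 was well below the other FxrKO livers. Reads of Nr1h4 were still counted in every liver, at 56.7 to 62.6 CPM in FxrKO livers and 39.4 to 48.1 CPM in Bcl6LKOFxrKO livers. Nr1h4 was called lower in the latter (log2 fold change -0.46, adjusted p = 0.00497, edgeR). The loss of FXR therefore rests on the labels and was not shown by these counts. Albumin took 4.04% to 5.16% of counts in FxrKO livers and 11.9% to 13.2% in Bcl6LKOFxrKO livers. When libraries were scaled by total counts alone, the median log2 fold change of all tested genes moved from 0.01 to -0.15 and the share of called genes that were higher fell from 54.5% to 32.2%, so each direction below is relative to the TMM scaling. Markers of other cells also differed between genotypes, where 16.2% of all tested genes were higher and 13.5% lower. Of 8 stellate markers 5 were higher (8 with DESeq2, 4 without liver 2, 3 or 4), and 3 of 8 hepatocyte markers were lower (5 with total counts alone) while albumin was higher. Higher were also 2 of 5 tested cholangiocyte markers (1 with 10 or more counts required in every liver, without liver 2, 3, 4, 5, 6 or 8 and without livers 3 and 6), 1 of 7 endothelial (2 without liver 4 or 6), 1 of 8 macrophage (2 with DESeq2 and without liver 2, 6 or 7), 1 of 2 neutrophil and 2 of 3 erythroid markers (1 with total counts alone and without liver 4, 5 or 8), while 1 erythroid marker was lower and no lymphocyte marker passed the expression filter. Their part in the values below was not tested. In bulk liver, fewer cells of a type and less RNA per cell cannot be told apart. Pancreatic acinar markers, relevant to Slc39a5, summed to at most 2.79 CPM in any liver, and 4 of the 7 with a row were at 0 in every liver. Enterocyte markers, relevant to Slc39a4, had 4 of 8 genes at 0 in every liver, and their sum of 346 to 464 CPM in FxrKO livers and 937 to 2154 in Bcl6LKOFxrKO livers was mostly Apoa4, which liver also makes.

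Livers 3 and 6 stood at the ends of their genotypes in acute phase genes, the secreted proteins that liver makes in response to inflammation. Liver 3 had the lowest CPM of the FxrKO livers in 24 of 24 acute phase genes, against 24.6% of all tested genes. Liver 6 had the highest CPM of the Bcl6LKOFxrKO livers in 23 of 24, against 24.8% of all tested genes. This was noticed after the values were seen, and genes whose call changed without both livers, or whose fold moved by more than 1.5 times, are therefore also given without them.

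Of the 10 genes, 3 (Mt1, Slc39a4 and Cp) were higher in Bcl6LKOFxrKO than in FxrKO livers and 1 (Slc39a5) was lower at an adjusted p under 0.05 (edgeR quasi-likelihood test, adjusted over all tested genes). Among all tested genes 29.7% were called, 16.2% higher and 13.5% lower, so 4 of 10 is a share near the background. In Slc39a4 and Cp, all 4 Bcl6LKOFxrKO livers were above all 4 FxrKO livers, as in 16.1% of tested genes. In Slc39a5 all 4 were below, as in 15.2% of tested genes. The remaining 7 genes overlapped between genotypes.

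**Figure D1:**
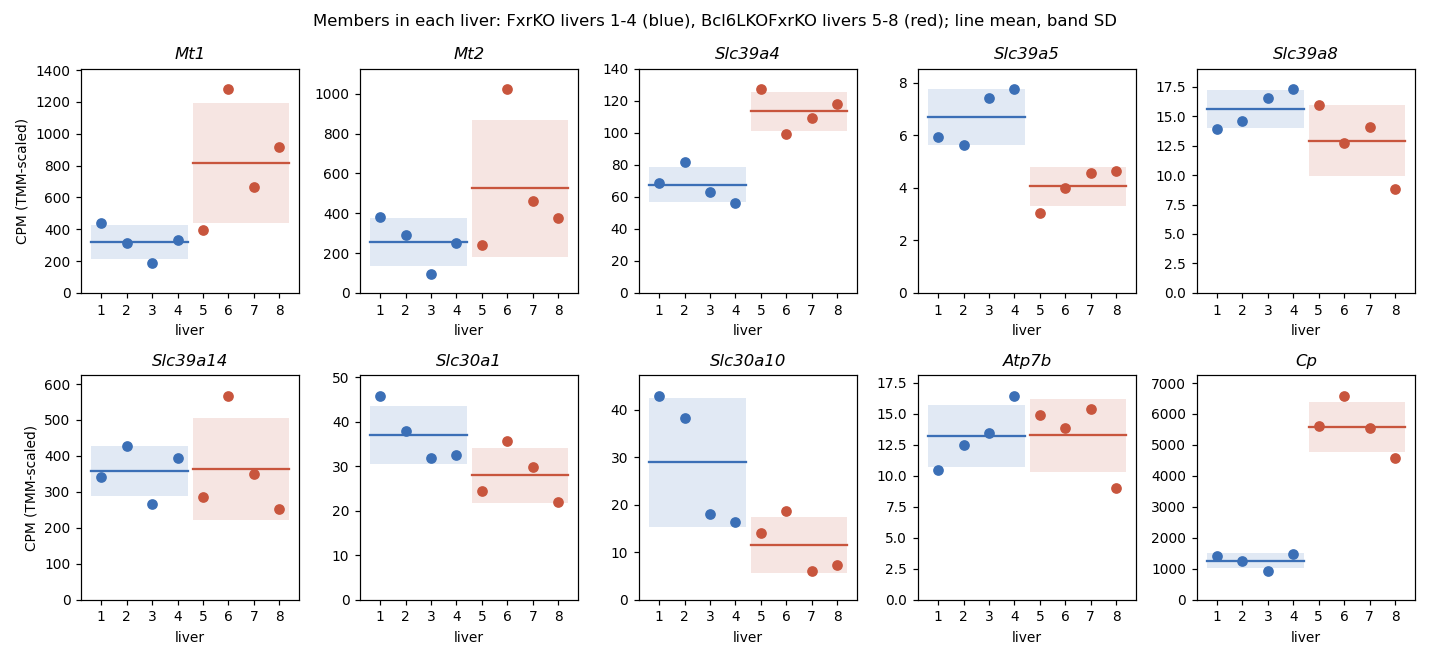
Each panel plots the CPM of 1 gene (vertical axis, from 0) in each of 8 livers (horizontal axis), FxrKO livers 1 to 4 in blue and Bcl6LKOFxrKO livers 5 to 8 in red, with the group mean as a line and the SD as a band. The genotypes are apart in Slc39a4, Slc39a5 and Cp, and Mt1, Mt2 and Slc39a14 each have liver 6 as their highest point.

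Metallothionein 1 was on average 2.56-fold higher in Bcl6LKOFxrKO livers, but the livers of each genotype were far apart. Mt1 (NM_013602, mm10 chromosome 8 from 94179089 to 94180327) measured 442, 316, 185 and 332 CPM in FxrKO livers 1 to 4 and 397, 1282, 666 and 916 CPM in Bcl6LKOFxrKO livers 5 to 8. Liver 5 lay below FxrKO liver 1, and the other 3 Bcl6LKOFxrKO livers were above every FxrKO liver. The means were 319 ± 105 and 815 ± 377 CPM (SD, n = 4), a log2 fold change of 1.35 (standard error 0.38, 95% interval 0.50 to 2.21, adjusted p = 0.027 from edgeR), with p = 0.0571 in the two-sided exact permutation test. The call was lost in 5 of the 16 alternatives, namely with no expression filter (adjusted p = 0.0722, edgeR), with limma voom (log2 fold change 1.09, adjusted p = 0.102) and in edgeR without liver 2 (adjusted p = 0.0605), liver 4 (0.0548) or liver 8 (0.0909). Its log2 fold change was between 1.04 and 1.58 when each liver was left out in turn and 0.86 (adjusted p = 0.0448, edgeR) without livers 3 and 6.

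Metallothionein 2 showed the same order of livers at the ends and no call. Mt2 (NM_008630, chromosome 8 from 94172618 to 94173567) measured 383, 292, 93.2 and 250.5 CPM in FxrKO livers and 241.5, 1024, 460.0 and 377.5 CPM in Bcl6LKOFxrKO livers. Liver 3 was the lowest of all 8 and liver 6 the highest, and the genotypes overlapped. The log2 fold change was 1.045 (standard error 0.56, 95% interval -0.27 to 2.36, adjusted p = 0.207 from edgeR; exact permutation p = 0.229), so a change in either direction was not resolved. Without livers 3 and 6 it was 0.22 (adjusted p = 0.526, edgeR). In the GENCODE M21 annotation 432 of the 588 exon bases of Mt2 lie opposite exons of Gm45774 on the other strand. The stated counting options name no strand, so reads of the overlapping genes cannot be told apart.

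The spread between livers of 1 genotype was large for both metallothioneins. The within-genotype SD of log2 CPM was 0.63 for Mt1 and 0.88 for Mt2, at percentiles 94.2 and 98.2 of all tested genes. Among the 320 genes with a mean within 2-fold of that of Mt1 the median SD was 0.20, and among the 475 such genes of Mt2 it was 0.19. The counts of Mt1 and Mt2 together took 0.0871%, 0.0641%, 0.0296% and 0.0612% of all gene counts in livers 1 to 4 and 0.0619%, 0.208%, 0.110% and 0.120% in livers 5 to 8. The means of these shares, whose denominator holds the albumin counts, were 0.0605% and 0.125% (log2 difference 1.02, exact permutation p = 0.0857). When the denominator excluded the 50 most counted genes they were 0.0876% and 0.217% (log2 difference 1.27, exact permutation p = 0.0571). Fitted as 1 gene, the sum differed by 1.23 on the log2 scale (standard error 0.44, 95% interval 0.21 to 2.24, adjusted p = 0.0707 from edgeR), which passed the threshold with DESeq2 (1.22, adjusted p = 0.0333) and without liver 5 (1.46, adjusted p = 0.0215 from edgeR). Without livers 3 and 6 the sum was at 0.60 (adjusted p = 0.0964, edgeR).

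Mt1 counts exceeded Mt2 counts in every liver. The Mt1 to Mt2 ratio was 1.15, 1.08, 1.99 and 1.33 in livers 1 to 4 and 1.64, 1.25, 1.45 and 2.43 in livers 5 to 8. Its log2 difference between genotypes was 0.28 (exact permutation p = 0.371), and livers 3 and 8 had the highest ratio of their genotype. The other members of the family were barely counted. Mt3, the brain form, and Mt4, the form of stratified epithelia, had at most 6 and 2 counts in any liver and were not tested.

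Acute phase genes are given beside metallothionein because livers 3 and 6 were at the ends of both. Lcn2, the siderophore-binding lipocalin 2, was at 409, 64.5, 20.6 and 234.5 CPM in livers 1 to 4 and at 149, 812, 127 and 188 CPM in livers 5 to 8. Saa1, serum amyloid A, was at 4049, 659, 169 and 1598 CPM in livers 1 to 4 and at 95.9, 1053, 63.5 and 220.2 CPM in livers 5 to 8. Both genes were chosen after their values were seen, and both had liver 1 highest and liver 3 lowest among FxrKO livers and liver 6 highest among Bcl6LKOFxrKO livers, as Mt1 and Mt2 did. The order of the other livers differed: among Bcl6LKOFxrKO livers Lcn2 and Saa1 were lowest in liver 7, and Mt1 and Mt2 in liver 5. Among FxrKO livers, liver 1 was not the highest throughout the acute phase list. Liver 2 was highest in Fga, Fgb, Fgg, Crp, Serpina3n, Socs3, Lbp and Hamp, liver 4 in Apcs and Itih3, and liver 1 in the rest. Liver 3 was lowest and liver 6 highest in 5 of the 10 metal genes (Mt1, Mt2, Slc39a14, Slc30a1 and Cp), against 8.37% of all tested genes and 23 of 24 acute phase genes, on which these livers were picked. The values of the metal genes had also been seen by then, so this count is a description and no test. Between genotypes, 2 of 24 acute phase genes were higher and 1 was lower, against 16.2% and 13.5% of all tested genes. The median log2 fold change of the 24 was 0.03, and the number of them lower was 5 without liver 6 and 9 without livers 3 and 6. Their part in the metallothionein values was not tested.

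**Figure D2:**
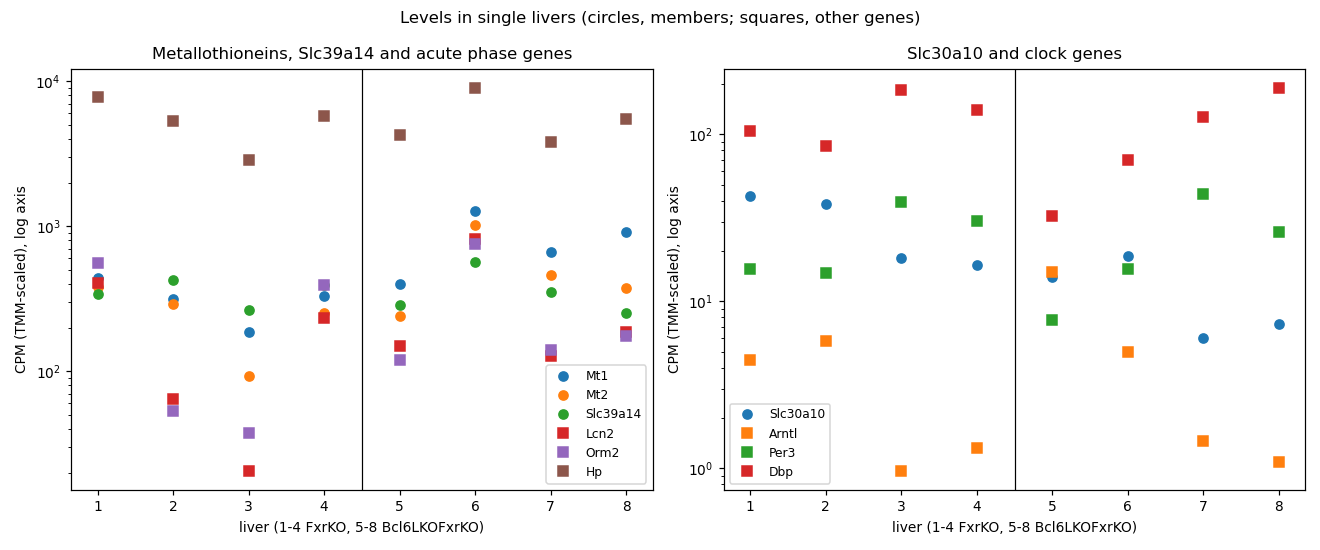
The left panel plots CPM on a log axis against liver for Mt1, Mt2 and Slc39a14 (circles) and the acute phase genes Lcn2, Orm2 and Hp (squares), and the right panel does so for Slc30a10 (circles) and the clock genes Arntl, Per3 and Dbp (squares). Liver 3 is the lowest FxrKO liver and liver 6 the highest Bcl6LKOFxrKO liver for every gene of the left panel, and in the right panel Slc30a10 and Arntl are higher in livers 1 and 2 than in 3 and 4.

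Glucocorticoid response genes did not move one way: 2 of 10 were higher and 2 lower, against 16.2% and 13.5% of all tested genes. Of 10 tested, Sgk1 (log2 fold change 1.43, adjusted p = 0.00131, edgeR) and Fkbp5 (1.098, adjusted p = 0.025) were higher, and Pck1 (-1.61, adjusted p = 0.00215) and Tsc22d3 (-1.92, adjusted p = 0.00926) were lower. The count of higher genes was 1 with no expression filter and without liver 7 or 8, and that of lower genes was 4 without livers 3 and 6. The call of Fkbp5 was also lost without liver 2 or 6, with the adjusted p reaching 0.0955. Mtf1, the gene of the zinc-sensing factor, was at 24.1 ± 1.42 and 24.5 ± 1.59 CPM (SD, n = 4), a log2 fold change of 0.02 (95% interval -0.22 to 0.27, adjusted p = 0.899, edgeR). The list of MTF-1 and its targets holds Mt1, Mt2 and Slc30a1, which are among the genes followed here. Of its 7 other genes 3 were higher and none was lower, and Mtf1, Slc39a10 (-0.34), Selenoh (-0.03) and Gclc (-0.15) were not called. The list does not part genes that MTF-1 raises from genes that it lowers. With Mt1, Mt2 and Slc30a1 included, the median log2 fold change of the 10 genes was 0.33 against 0.01 over all tested genes. Of these 10, 4 were higher, against 16.2% of all tested genes, and none was lower. Beside Mt1 these were Ndrg1, a stress and hypoxia gene (13.2 ± 5.16 to 63.55 ± 14.9 CPM, log2 fold change 2.26, adjusted p = 6.96e-05, edgeR), Csrp1, a cytoskeletal LIM protein (0.92, adjusted p = 0.00137), and the selenoprotein gene Selenow (0.63, adjusted p = 0.0269). The call of Selenow held in 9 of 16 alternatives and was lost with total counts alone, without liver 2, 3, 4, 5 or 8 and without livers 3 and 6 (0.63, adjusted p = 0.0562, edgeR), with the adjusted p reaching 0.0779. The count fell to 2 without liver 2, 4 or 8. With total counts alone, without liver 6 and without livers 3 and 6, 1 gene of the list was also lower. Of 9 tested NRF2 response genes 4 were higher, the quinone reductase Nqo1 most (log2 fold change 1.80, adjusted p = 0.000109, edgeR), and none was lower. Over all tested genes 16.2% were higher and 13.5% lower. The part of these lists in the metallothionein values was not tested.

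Among the zinc importers, Slc39a4 rose and Slc39a5 fell. Slc39a4 encodes ZIP4, the importer best known for zinc uptake by the intestine, whose loss in people causes the zinc deficiency disease acrodermatitis enteropathica. Slc39a4 (NM_028064, chromosome 15 from 76612383 to 76616852) measured 68.9, 81.7, 63.2 and 56.2 CPM in FxrKO livers and 127, 98.9, 109 and 118 CPM in Bcl6LKOFxrKO livers. Every Bcl6LKOFxrKO liver was above every FxrKO liver. The means were 67.5 ± 10.8 and 113 ± 12.2 CPM (SD, n = 4), a log2 fold change of 0.75 (standard error 0.13, 95% interval 0.47 to 1.03, adjusted p = 0.000951 from edgeR; exact permutation p = 0.0286, the smallest that 4 against 4 livers can give). The call held in 16 of 16 alternatives, with log2 fold changes between 0.59 and 0.85. Here the lowest Bcl6LKOFxrKO value was that of liver 6, unlike in the metallothioneins.

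Slc39a5, whose product ZIP5 is an importer of the basolateral membrane in intestine and pancreas, was low in these livers. Slc39a5 (NM_001136237, chromosome 10 from 128395931 to 128401224) measured 5.93, 5.62, 7.42 and 7.76 CPM in FxrKO livers and 3.02, 4.005, 4.58 and 4.63 CPM in Bcl6LKOFxrKO livers, from 45 to 82 and from 30 to 51 counts per liver. The genotypes did not overlap, and the log2 fold change was -0.72 (standard error 0.20, 95% interval -1.16 to -0.28, adjusted p = 0.0181 from edgeR; exact permutation p = 0.0286). The call was lost without liver 3 (-0.67, adjusted p = 0.0522), liver 4 (-0.64, adjusted p = 0.0568), liver 5 (-0.60, adjusted p = 0.0551) or livers 3 and 6 together (-0.66, adjusted p = 0.0861), all from edgeR. The direction was the same in 16 of 16 alternatives.

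Slc39a14 and Slc39a8 encode ZIP14 and ZIP8, closely related importers that carry manganese as well as zinc, and ZIP14 is known to be raised in liver by interleukin 6. Slc39a14 (NM_001135151, chromosome 14 from 70303467 to 70351424) measured 343, 428, 266 and 393.5 CPM in FxrKO livers and 287, 567, 351 and 252 CPM in Bcl6LKOFxrKO livers. The genotypes overlapped throughout, and liver 6 was the highest of all 8. The log2 fold change was 0.03 (standard error 0.24, 95% interval -0.50 to 0.56, adjusted p = 0.948 from edgeR; exact permutation p = 0.914). Its sign was not stable: it was -0.14 with total counts alone, -0.01 with limma voom, -0.10 without liver 3, -0.28 without liver 6 and -0.39 (adjusted p = 0.0942, edgeR) without livers 3 and 6.

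Slc39a8 (NM_001135150, chromosome 3 from 135825790 to 135888572) measured 13.95, 14.6, 16.55 and 17.3 CPM in FxrKO livers and 15.9, 12.7, 14.1 and 8.81 CPM in Bcl6LKOFxrKO livers. Livers 6 and 8 lay below every FxrKO liver, and livers 5 and 7 lay among them. The log2 fold change was -0.28 (standard error 0.18, 95% interval -0.66 to 0.10, adjusted p = 0.258 from edgeR; exact permutation p = 0.143), and no call was made in any of the 16 alternatives.

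In the whole SLC39 family, 13 of 14 genes were tested. Of these 3 were higher and 2 lower, against 16.2% and 13.5% of all tested genes. The median log2 fold change was 0.03 against 0.01 over all tested genes. Beside the genes above, Slc39a13, an importer of the secretory pathway, was higher at 14.8 ± 0.92 against 9.92 ± 0.89 CPM (SD, n = 4; log2 fold change 0.58, standard error 0.14, adjusted p = 0.00623, edgeR). Slc39a11 was also higher (0.35, adjusted p = 0.0257, edgeR), but its call held in 8 of 16 alternatives and was lost with total counts alone, with no expression filter, without liver 2, 3, 4, 5 or 6 and without livers 3 and 6 (0.32, adjusted p = 0.106, edgeR), with the adjusted p reaching 0.193. Slc39a2 was lower, at 0.585 ± 0.359 against 1.76 ± 0.11 CPM (SD, n = 4; log2 fold change -1.57, standard error 0.38, adjusted p = 0.00757, edgeR), with at most 19 counts in a liver. The number of lower genes was 1 in place of 2 when every liver had to hold 10 counts or more, without liver 3, 4 or 5 and without livers 3 and 6. The endoplasmic reticulum importer Slc39a7 was at 121 ± 10.5 and 129.5 ± 12.25 CPM and the plasma membrane importer Slc39a1 at 84.5 ± 7.01 and 74.2 ± 8.07 CPM (SD, n = 4), with adjusted p = 0.546 and 0.231 from edgeR.

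**Figure D3:**
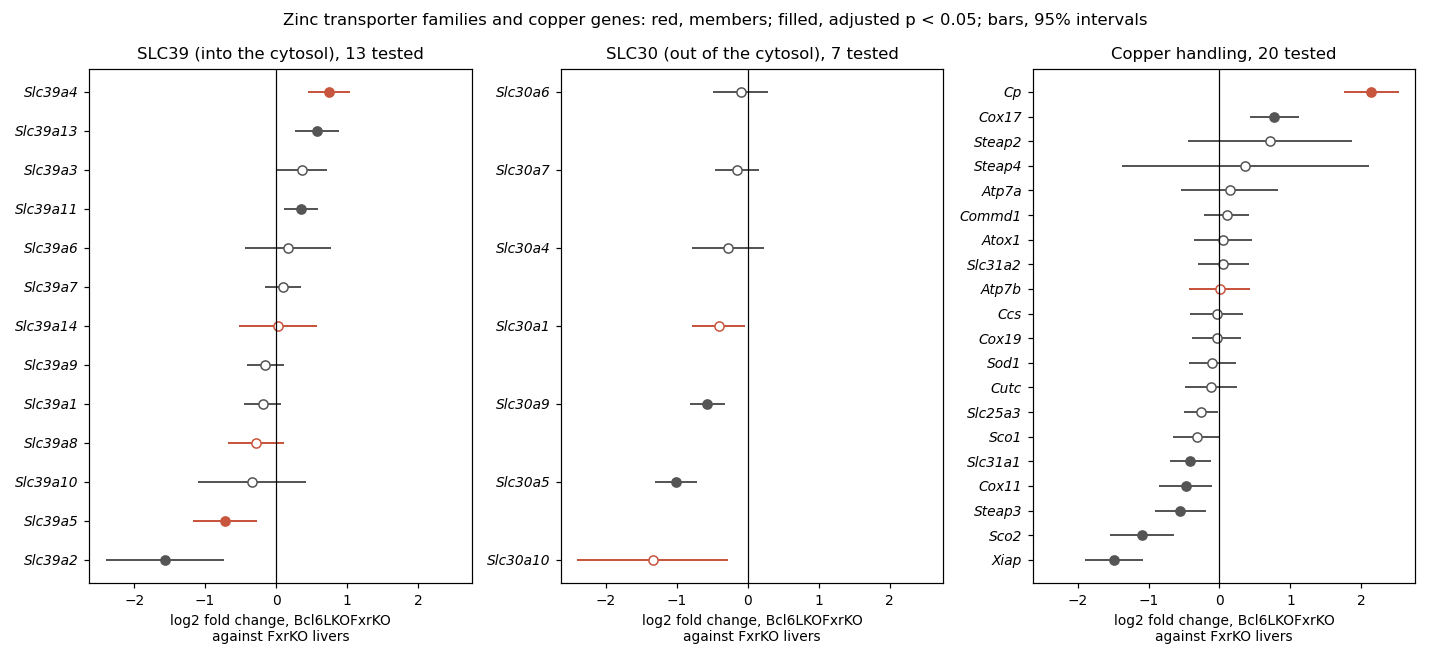
Log2 fold changes of Bcl6LKOFxrKO against FxrKO livers (horizontal axis) with 95% intervals for the tested genes of the SLC39 family (13), the SLC30 family (7) and the copper list (20), with the 10 genes followed here in red and filled points at an adjusted p under 0.05. SLC39 genes lie on both sides of 0, and all 7 SLC30 points lie below it, 2 of them filled.

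Neither exporter among the 10 genes passed the threshold. Slc30a1 encodes ZnT1, which exports zinc at the plasma membrane and is a known MTF-1 target. Slc30a1 (NM_009579, chromosome 1 from 191906781 to 191913247) measured 45.8, 37.9, 31.9 and 32.45 CPM in FxrKO livers and 24.4, 35.7, 29.7 and 22.0 CPM in Bcl6LKOFxrKO livers. Livers 5, 7 and 8 lay below every FxrKO liver, and liver 6 lay among them. The log2 fold change was -0.41 (standard error 0.17, 95% interval -0.77 to -0.05, adjusted p = 0.0831 from edgeR; exact permutation p = 0.114). It passed the threshold with total counts alone (-0.57, adjusted p = 0.0168), without liver 6 (-0.55, adjusted p = 0.0256) and without livers 3 and 6 (-0.61, adjusted p = 0.0301), all from edgeR. Of its 5244 exon bases 468 lie opposite those of 1700034H15Rik, which had 8 to 27 counts per liver.

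Slc30a10 encodes the transporter that moves manganese out of hepatocytes toward bile, and its livers were far apart within each genotype. Slc30a10 (NM_001033286, chromosome 1 from 185454848 to 185468761) measured 43.0, 38.2, 18.2 and 16.5 CPM in FxrKO livers and 14.0, 18.7, 6.04 and 7.355 CPM in Bcl6LKOFxrKO livers. Within each genotype the livers fell into a high and a low pair, livers 1 and 2 above 3 and 4, and livers 5 and 6 above 7 and 8. The means were 29.0 ± 13.6 and 11.5 ± 5.91 CPM (SD, n = 4), a log2 fold change of -1.34 (standard error 0.45, 95% interval -2.39 to -0.30, adjusted p = 0.0584 from edgeR; exact permutation p = 0.0857). Its within-genotype SD of log2 CPM was 0.74, above that of 98.8% of the 4549 genes with a mean within 2-fold. It passed the threshold with DESeq2 (-1.33, adjusted p = 0.0284), with total counts alone (-1.51, adjusted p = 0.032) and in edgeR without liver 3 (-1.51, adjusted p = 0.0472), liver 4 (-1.54, adjusted p = 0.0347), liver 6 (-1.67, adjusted p = 0.0277) or livers 3 and 6 (-1.84, adjusted p = 0.0144).

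The same pairs of livers were compared in the clock genes. Arntl, which encodes the clock activator BMAL1 and was chosen after its values were seen, was at 4.475, 5.75, 0.967 and 1.325 CPM in FxrKO livers and at 14.9, 4.98, 1.46 and 1.09 CPM in Bcl6LKOFxrKO livers. Per3, a clock repressor chosen in the same way, ran in the opposite order, at 15.7, 14.75, 39.55 and 30.2 CPM in livers 1 to 4 and at 7.76, 15.5, 44.0 and 26.15 CPM in livers 5 to 8. Livers 1 and 2 were thus above 3 and 4, and livers 5 and 6 above 7 and 8, for both Slc30a10 and Arntl. Of 15 clock genes with a row, 3 ran in this order, 7 in the opposite order and 5, among them Hlf, in neither, against 4.82% and 4.72% of all tested genes in the first and second order. Of the 10 metal genes Slc30a10 ran in the first order and Slc39a5 in the opposite one. These pairs were formed after the values of Slc30a10 were seen. Between genotypes 13.5% of all tested genes were lower and 16.2% higher. Of 14 tested clock genes 2 were lower, Hlf (log2 fold change -1.50, adjusted p = 0.00012, edgeR) and Per2 (-1.57, adjusted p = 0.0468), and none was higher. The number lower was 4 with total counts alone and without liver 1 or 7, and 1 with no expression filter, with limma voom, without liver 3, 4, 5, 6 or 8 and without livers 3 and 6, where Per2 was at -1.38 (adjusted p = 0.158, edgeR). The part of the clock genes in the Slc30a10 values was not tested. Gm2061, whose exons lie opposite 533 of the 5836 exon bases of Slc30a10, had 53, 24, 22 and 15 counts in livers 1 to 4 and 11, 14, 8 and 6 in livers 5 to 8, against at most 413 for Slc30a10. Of 9 genes of manganese transport 1 was called, against 29.7% of all tested genes. It was Tfrc, the transferrin receptor (18.2 ± 4.11 to 32.6 ± 7.305 CPM, log2 fold change 0.83, adjusted p = 0.0057, edgeR). With limma voom and without liver 8, 2 genes of that list were higher, and 1 was lower with total counts alone, with DESeq2, without liver 3, 4 or 6 and without livers 3 and 6.

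In the SLC30 family 7 of 10 genes were tested, none was higher and 2 were lower, against 16.2% and 13.5% of all tested genes. The median of the log2 fold changes was -0.41 against 0.01 over all tested genes. The 7 include Slc30a10 and Slc30a1, whose own value is that median. Of the 5 others, Slc30a5 and Slc30a9 were called, and Slc30a4 (-0.28), Slc30a6 (-0.10) and Slc30a7 (-0.15) were not. Slc30a5, which encodes ZnT5, a zinc transporter of the Golgi, fell from 49.05 ± 5.78 to 24.45 ± 3.08 CPM (SD, n = 4; log2 fold change -1.01, standard error 0.13, adjusted p = 9.46e-05, edgeR). Slc30a9, which encodes a mitochondrial zinc transporter, fell from 62.5 ± 3.47 to 42.2 ± 4.39 CPM (SD, n = 4; log2 fold change -0.57, standard error 0.11, adjusted p = 0.00179, edgeR). Both calls held in 16 of 16 alternatives. The number of lower genes was 4 in place of 2 with total counts alone, without liver 6 and without livers 3 and 6. Slc30a2, Slc30a3 and Slc30a8 had at most 4 counts in any liver and were not tested.

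Ceruloplasmin, the copper-carrying ferroxidase of plasma, was 4.404-fold higher in Bcl6LKOFxrKO livers. Cp (NM_007752, chromosome 3 from 19957054 to 19992998) measured 1424, 1261, 914 and 1466 CPM in FxrKO livers and 5603, 6586, 5536 and 4588 CPM in Bcl6LKOFxrKO livers. The lowest Bcl6LKOFxrKO liver was above the highest FxrKO liver. The means were 1267 ± 251 and 5578 ± 816 CPM (SD, n = 4), a log2 fold change of 2.14 (standard error 0.17, 95% interval 1.77 to 2.51, adjusted p = 1.57e-06 from edgeR; exact permutation p = 0.0286), above that of 98.0% of tested genes. The call held in 16 of 16 alternatives, with log2 fold changes between 1.92 and 2.22. As a share of all counts, Cp was 0.0971% to 0.154% in FxrKO livers and 0.427% to 0.593% in Bcl6LKOFxrKO livers. Of its 9566 annotated exon bases 108 lie opposite exons of Hps3, which had 49 to 83 counts per liver. Within genotypes Cp was also lowest in liver 3 and highest in liver 6 for the Bcl6LKOFxrKO livers, and without these livers its log2 fold change was 1.92 (adjusted p = 4.59e-06, edgeR).

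Atp7b, the copper pump that is defective in Wilson disease, showed no such difference. Atp7b (NM_007511, chromosome 8 from 21994348 to 22060074) measured 10.5, 12.5, 13.4 and 16.5 CPM in FxrKO livers and 14.9, 13.8, 15.4 and 8.99 CPM in Bcl6LKOFxrKO livers. The genotypes overlapped, with means of 13.2 ± 2.48 and 13.3 ± 2.93 CPM (SD, n = 4). The log2 fold change was 0.00092 (standard error 0.19, 95% interval -0.42 to 0.42, adjusted p = 0.998 from edgeR; exact permutation p = 1.0), and its sign changed in 11 of 16 alternatives. The interval leaves room for a change of up to 0.42 on the log2 scale in either direction.

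Of 20 tested copper genes 2 were higher and 5 lower, against 16.2% and 13.5% of all tested genes. The median of the log2 fold changes was -0.04 against 0.01 over all tested genes. Cox17, a copper chaperone for cytochrome oxidase, was the other higher gene (16.9 ± 1.56 to 28.8 ± 6.10 CPM, log2 fold change 0.77, adjusted p = 0.00233, edgeR). Sco2 and Cox11, which also serve cytochrome oxidase, were lower (log2 fold changes -1.095 and -0.48, adjusted p = 0.0016 and 0.0469, edgeR). Xiap, an inhibitor of apoptosis that takes part in copper control, fell from 75.6 ± 8.27 to 27.0 ± 7.13 CPM (SD, n = 4; log2 fold change -1.49, adjusted p = 6.63e-05, edgeR). Slc31a1, which encodes the main copper importer CTR1, fell from 243 ± 11.5 to 183 ± 27.3 CPM (log2 fold change -0.41, adjusted p = 0.0256, edgeR), and its call was lost without liver 2 or 4, with the adjusted p reaching 0.0696. The metalloreductase Steap3 was lower (-0.55, adjusted p = 0.0196, edgeR), without a call when liver 2, liver 3 or both livers 3 and 6 were left out (adjusted p up to 0.0884). Cox11 kept its call in 7 of 16 alternatives, losing it when every liver had to hold 10 counts or more, without any 1 of livers 1 to 6 or 8, and without livers 3 and 6 (-0.40, adjusted p = 0.168, edgeR). In the copper list the count of lower genes was 2 without liver 2 and 3 without liver 3 or 4.

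**Figure D4:**
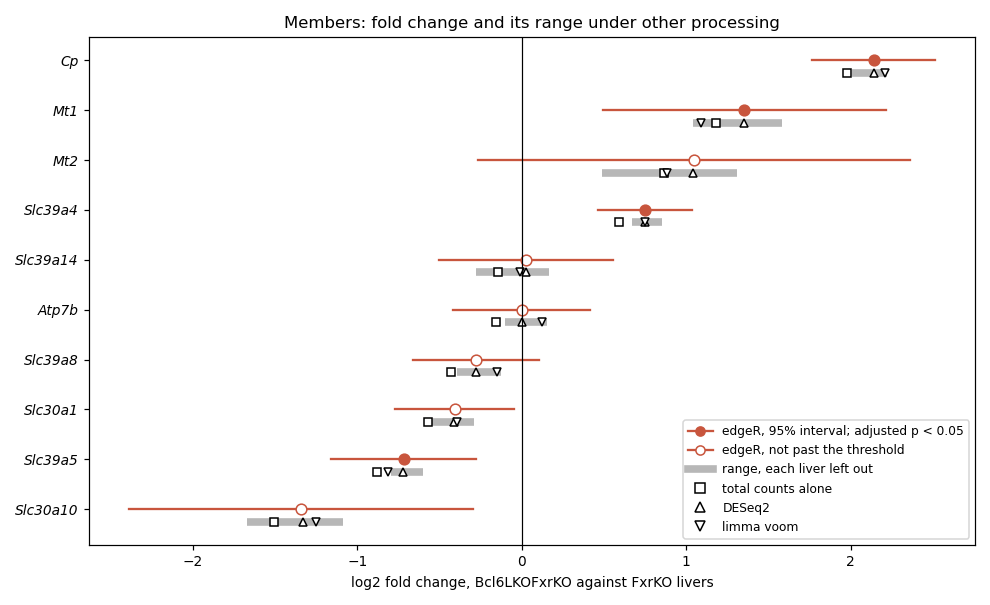
Log2 fold changes of Bcl6LKOFxrKO against FxrKO livers (horizontal axis) for the 10 genes, with the edgeR value and 95% interval in red (filled at an adjusted p under 0.05), the range over fits that leave out 1 liver as a grey bar, and values with total counts alone, DESeq2 and limma voom as open symbols. Cp and Slc39a4 keep their side of 0 with narrow intervals, Slc30a10 and Mt2 have the widest intervals, and Slc39a14 and Atp7b straddle 0.

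Levels of different genes were compared as CPM per kilobase of transcript. In FxrKO livers the order was Mt1 (594 ± 196 CPM per kilobase, SD, n = 4), Mt2 (462 ± 220), Cp (327 ± 64.9), Slc39a14 (72.75 ± 14.3), Slc39a4 (30.5 ± 4.89), Slc30a1 (7.08 ± 1.23), Slc30a10 (4.97 ± 2.33), Slc39a8 (4.43 ± 0.45), Slc39a5 (3.47 ± 0.55) and Atp7b (2.82 ± 0.53). Only the steps from Cp to Slc39a14, to Slc39a4 and to Slc30a1 were between genes whose ranges over the 4 livers did not overlap. In Bcl6LKOFxrKO livers Cp, at 1442 ± 211 CPM per kilobase (SD, n = 4), stood between Mt1 (1518 ± 701) and Mt2 (954 ± 624), and the ranges of these 3 genes overlapped. Slc30a10 was last of the 10 at 1.98 ± 1.01 CPM per kilobase (SD, n = 4), and its range overlapped that of Slc39a5. Slc39a14 was the leading zinc transporter of the 10 in both genotypes, at 74.1 ± 28.8 CPM per kilobase (SD, n = 4) in Bcl6LKOFxrKO livers, where its range overlapped that of Slc39a4 at 51.3 ± 5.498.

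**Figure D5:**
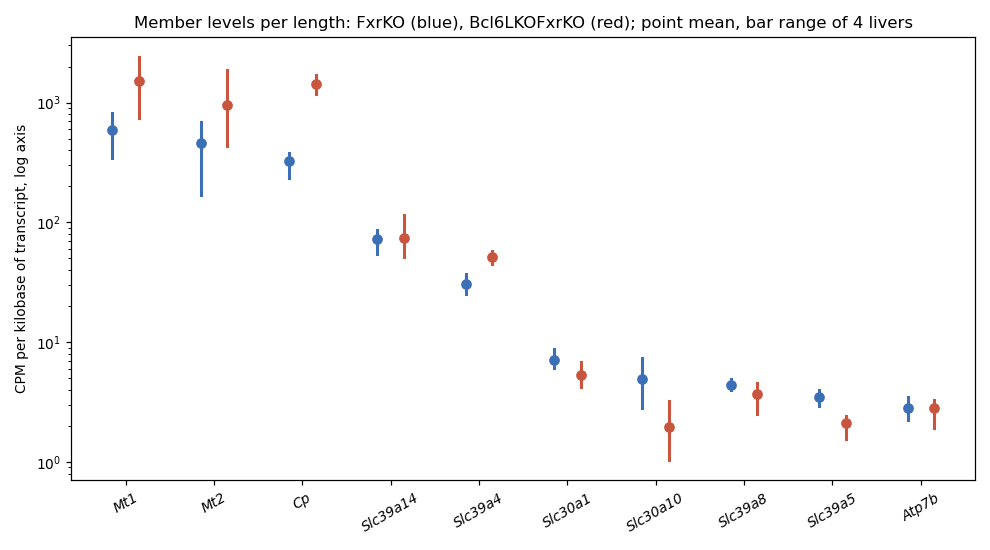
CPM per kilobase of transcript on a log axis for the 10 genes (horizontal axis, in the FxrKO order), with FxrKO livers in blue and Bcl6LKOFxrKO livers in red, points for means and bars for the range of 4 livers. The blue and red bars are apart for Cp, Slc39a4 and Slc39a5 and overlap for the other genes.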

How the data were processed

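Liver RNA of 4 FxrKO and 4 Bcl6LKOFxrKO males was sequenced in 100-base reads. The authors used STAR 2.5.2 to align reads to mm10, discarding reads that mapped to more than 1 place or had over 4 mismatches. The deposited values are unnormalized read counts over the exons of each gene, made with HOMER 4.10 (versions per the submitters' processing notes) on 1 transcript a gene, whose length is given. Groups and liver numbers are those of the sample labels, which give no pairing and no batch.

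The counts were fitted in R 4.3.3 with edgeR 4.0.16 (filterByExpr, TMM, robust quasi-likelihood test, Benjamini-Hochberg adjustment over 12340 genes, threshold 0.05). The study's methods name DESeq2, run here as an alternative. CPM use the TMM factors. Exact permutation tests of mean log2 CPM were two-sided over 70 orderings. Alternatives were DESeq2 1.42.0, limma 3.58.1 (voom, sample quality weights), scaling by RLE or by total counts alone, TMM without the 50 most counted genes, a filter of 10 counts in each liver or none, and the removal of each liver in turn. Leaving out livers 3 and 6 together was chosen after seeing the data. The edgeR, DESeq2 and limma steps were tested on simulated data with 200 changed genes. At the threshold of 0.05, 4.4% of the calls were false with edgeR, 9.05% with DESeq2 and 3.87% with limma voom. Livers of a genotype differed by more than sampling noise in every pair (chi-square per degree of freedom 10.7 to 49.3).

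The genes and the 20 other gene lists, including cell markers, were chosen with earlier results of these data known. Named were all 10 genes, Bcl6, Nr1h4 and albumin as checks, up to 3 called genes of a list in each direction and any gene of the zinc, metallothionein, copper, manganese and MTF-1 lists. Other acute phase and clock genes that are named or plotted, among them Orm2, Hp and Dbp, were chosen after their values were seen. Lists are described by counts and medians only. Promoter windows are from RefSeq (GRCm38.p6) and exon overlaps from GENCODE M21. Slc39a4 and Slc39a14 had no window in the promoter table used here.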

Additional observations from a re-analysis of the deposited data

How the results depend on the processing

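No paired analysis was possible because the labels give the livers no pairs. The log2 fold changes of the 10 genes and of the metallothionein sum, and the counts of called genes, were recomputed under 16 alternatives. The metallothionein share and the Mt1 to Mt2 ratio were recomputed with each liver left out, and the share also with another denominator, and neither passed the threshold. Mt2, Slc39a4, Slc39a8 and Cp kept their direction and their side of the threshold in all 16, and the number of the 10 genes called higher stayed within 1.5 times. With total counts alone, Slc30a1 (-0.57) and Slc30a10 (-1.51) passed the threshold, Slc39a14 (-0.14) and Atp7b (-0.15) changed sign, 3 of the 10 genes and 2956 of all genes were lower. Slc30a10 (-1.33) and the metallothionein sum (1.22) passed it with DESeq2, which called 2 of the 10 lower. Mt1 missed it with no filter (1.33) and limma voom (1.09). Slc39a14 was at -0.0122 with limma voom. Atp7b was at -0.00124 with RLE size factors, -0.0197 without the 50 most counted genes, -0.0233 with no filter and -0.000515 with DESeq2. With each liver left out in turn, log2 fold changes ran from 1.04 to 1.58 for Mt1, -0.79 to -0.60 for Slc39a5, -0.28 to 0.17 for Slc39a14, -0.55 to -0.29 for Slc30a1, -1.67 to -1.09 for Slc30a10, -0.10 to 0.15 for Atp7b and 0.82 to 1.46 for the metallothionein sum, and 0 (without liver 5) to 3 (without liver 6) of the 10 genes were lower. Without livers 3 and 6, Slc39a5 (-0.66) missed the threshold, Slc30a1 (-0.61) and Slc30a10 (-1.84) passed it, Slc39a14 (-0.39) and Atp7b (-0.0147) changed sign, and 2 of the 10 were lower. Leaving out livers lowers the number of samples; the cause of the other changes was not tested. The 4 livers per genotype and Slc39a5 counts of at most 82 limit the precision.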
